A study of Arabidopsis thaliana with 24 samples.

Results

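The early effect of titanium on shoots of Arabidopsis was examined gene by gene, as the level in Ti-treated shoots minus the level in control shoots after 3 days of treatment. It rests on 6 of the 24 RNA-seq libraries of the study, which compared Ti with Ctrl in roots and shoots at 3 and 10 days. Col-0 seedlings, the common laboratory accession, were grown for 5 days on agar with diluted MS medium under 16 h light and 8 h dark at 22 °C, and 160 seedlings per sample were then moved to new plates. The medium of the Ti group held 2 mM Ti, given as TiO2, and that of the Ctrl group held none. Shoots of the 160 seedlings were pooled into 1 library, with 3 libraries in each group. Col-0 is the genotype of all these groups, and whole shoots were taken, so cell types are mixed and fewer cells of a type cannot be told apart from less RNA per cell.

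Titanium is not an essential element of plants, and at low doses it is known as a beneficial element. Early responses of leaves to a changed medium are commonly read from a few groups of genes. Among them are the circadian clock, the transcription factors and zinc finger proteins that respond within minutes to touch, wounding or elicitors, the genes of sugar starvation and of hormones, and the enzymes that remove superoxide. The plant clock is a set of repressors that follow each other through the day. CCA1 and LHY peak in the morning, the PRR proteins follow, and TOC1, GI and the evening complex of ELF3, ELF4 and LUX peak in the evening.

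The shoot file holds 19495 genes, and 14215 of them (72.9%) had a mean of 5 CPM (read counts scaled to a common library size) or more over the Ti and Ctrl groups. The 3 deposited columns of a group do not differ in any row. Each group therefore has 1 fitted value per gene, no spread between replicates can be computed, and no difference given here was tested. The differences are log2 fold changes (log2F.C.) of Ti over Ctrl, and "higher" and "lower" mean beyond 0.2. The study used this limit together with a false discovery rate, which cannot be computed here. By both it called only AT1G07730 higher and only AT1G24800 and LCR11 (AT4G11485) lower in shoots at 3 days. If the lowest value of the shoot file stands for the default prior count of edgeR, then 1 CPM is about 22.6 reads of a shoot library. Counting error alone then gives a 95% interval of ±0.22 around a log2F.C. of a gene at 5 CPM, ±0.11 at 20 CPM and ±0.05 at 100 CPM. These intervals cover counting error only. The study estimated the variation between replicate shoot libraries, which is not included here and would make the intervals wider. A narrow counting interval of an abundant gene is therefore not the precision of its log2F.C. Whether a difference of 0.2 exceeds the spread between replicates cannot be told at any level.

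In Ti-treated shoots at 3 days, 1185 of the 14215 genes were higher (8.34%) and 737 were lower (5.18%). Beyond 0.5 the counts were 83 higher (0.584%) and 58 lower (0.408%), and beyond 1 they were 8 higher (0.0563%) and 16 lower (0.113%). The median log2F.C. was 0.01 and the robust standard deviation 0.12. Among genes with a mean of 20 CPM or more, 526 were higher and 224 lower, and without genes whose level in roots was over 2 times that in shoots the lower genes numbered 381. Evening genes of the clock, rapid stress regulators, genes abundant in roots and single genes such as FSD1 and ASN1 are described in turn. Several of the largest differences, among them those of AT3G22125 and AT2G01021, belong to none of these groups.

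Of 26 clock genes, 25 had a mean of 5 CPM or more, and 9 of them were higher in Ti-treated shoots and 4 lower, against 8.34% and 5.18% of all genes. The median over the 25 was -0.01, close to the 0.01 of all genes, so the list split into genes above and below. Members of this and the other lists were chosen with earlier results of these data known. ELF4, a component of the evening complex, had 12.5 CPM in Ti-treated and 5.67 CPM in Ctrl shoots (log2F.C. 1.13, counting interval ±0.17). TOC1, the evening repressor of CCA1 and LHY, had 80.5 CPM in Ti-treated and 44.4 CPM in Ctrl shoots (0.86, ±0.06). Its relative PRR3 had 12.5 CPM in Ti-treated and 6.87 CPM in Ctrl shoots (0.86, ±0.16). These 3 evening genes had the largest log2F.C. of the list. The blue light receptor FKF1 was at 30.4 CPM in Ti-treated and 19.0 CPM in Ctrl shoots (0.68). PRR5 was at 87.3 CPM with Ti and 57.0 CPM in Ctrl (0.62), and GI, a partner of FKF1 in the control of flowering time, at 157 CPM with Ti and 103 CPM in Ctrl (0.61). The other members of the evening complex lay in the same direction, with ELF3 at 39.7 CPM with Ti and 27.1 CPM in Ctrl (0.55) and LUX at 29.3 CPM with Ti and 21.3 CPM in Ctrl (0.46). PRR7 completed the 9 with 334 CPM with Ti and 275.0 CPM in Ctrl (0.28).

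The morning genes lay on the other side. LHY had 28.8 CPM in Ti-treated and 36.3 CPM in Ctrl shoots (-0.33), and CCA1 had 92.3 CPM in Ti-treated and 107 CPM in Ctrl shoots (-0.22). CDF1 (-0.28), a repressor of flowering genes, and PRR9 (-0.21), the earliest of the PRR genes, were the other lower members. The 12 remaining members lay between -0.16 (LNK2) and 0.05 (ZTL). BOA, a relative of LUX, had a mean below 5 CPM, with 1.31 CPM with Ti and 0.81 CPM in Ctrl.

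Clock-controlled genes outside the list were also among the largest differences. COL9, a B-box protein that delays flowering, had 15.2 CPM in Ti-treated and 7.47 CPM in Ctrl shoots (1.02). COR27, a cold-regulated protein that acts in the clock, had 8.38 CPM in Ti-treated and 4.2 CPM in Ctrl shoots (1.00). GRP7, an RNA-binding protein with its own daily rhythm, had 876 CPM with Ti and 533 CPM in Ctrl (0.72), and BBX8, another B-box protein, 17.5 CPM with Ti and 10.8 CPM in Ctrl (0.69). GRP7 and BBX8 were chosen after their values had been seen.

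**Figure D1:**
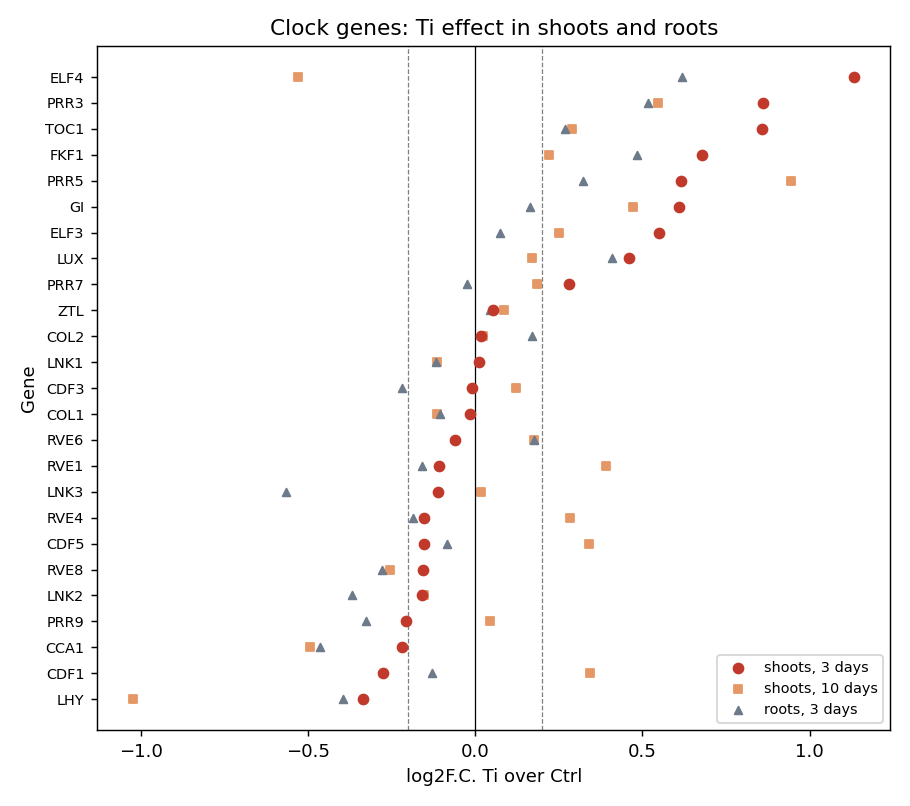
Log2F.C. of Ti over Ctrl (x axis) of the 25 clock genes with a mean of 5 CPM or more in shoots at 3 days, ordered by that value, with circles for shoots at 3 days, squares for shoots at 10 days and triangles for roots at 3 days; dashed lines mark -0.2 and 0.2. The circles run from -0.33 (LHY) to 1.13 (ELF4). The square of ELF4, at -0.53, rests on levels of 0.0897 CPM with Ti and 0.13 CPM in Ctrl.

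The same genes were looked up in libraries that share no sample with these. Roots and shoots of a time point may come from the same seedlings, and the hour of harvest is not given in the sources used here. In roots at 3 days, all 9 had a mean of 5 CPM or more and 6 of them were higher with Ti, against 3.4% of all root genes, with a median of 0.32. ELF4 (0.62), PRR3 (0.52), FKF1 (0.48), LUX (0.41), PRR5 (0.32) and TOC1 (0.27) were these 6. GI (0.16), ELF3 (0.07) and PRR7 (-0.03) were within 0.2 there, while LHY (-0.40), CCA1 (-0.46) and PRR9 (-0.33) were lower, as they were in shoots. Of the 5 that passed the same filter in shoots at 10 days, 3 were higher and 0 lower, against 20.7% and 17.61% of all genes. GI, TOC1 and ELF3 were the higher genes, and LUX and PRR7 lay within 0.2. Without that filter, PRR5 had 0.94, PRR3 0.55, GI 0.47, TOC1 0.29, ELF3 0.25 and FKF1 0.22 at 10 days, and ELF4 had -0.53. These values rest on few reads for ELF4 (0.0897 CPM with Ti, 0.13 CPM in Ctrl), PRR3 (0.437 CPM with Ti, 0.299 CPM in Ctrl) and PRR5 (0.755 CPM with Ti, 0.393 CPM in Ctrl). In roots at 10 days 8 of the 9 were higher, against 19.7% of all genes.

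The bases before the gene starts were searched for the evening element, the sequence bound by CCA1 and LHY and shared by many evening genes. Its core AATATCT, on either strand, was present in the 250 bases before the RefSeq start of 10.1% of the 14196 tested genes with a promoter in the reference. It was present in 7 of the 9 clock genes that were higher (77.8%) and in 4 of the 16 others (25%). GI and ELF3 were the 2 without it, and CCA1, RVE8, PRR9 and COL2 were the 4 with it. Of the 50 largest rises, 11 of 48 promoters held the core (22.9%), and of the 50 largest falls 2 of 50 (4%). The promoters of ELF4, TOC1, PRR3, COL9 and COR27 are among these 11. The share of the rises is therefore not separate from that of the clock and clock-controlled genes. Among the clock-controlled genes above, COR27, GRP7 and BBX8 had 3 cores each and COL9 had 1. The promoters of TOC1, PRR3 and FKF1, each with a log2F.C. above 0.5, are shown because they carry the element. They are printed from RefSeq, build TAIR10.1, on the strand of the gene from base -250 to base -1, with each core on either strand in capitals (AGATATT is its reverse complement). TOC1 lies on the plus strand (chr5:24674713-24674962), PRR3 on the minus strand (chr5:24201416-24201665) and FKF1 on the plus strand (chr1:25508389-25508638).
TOC1: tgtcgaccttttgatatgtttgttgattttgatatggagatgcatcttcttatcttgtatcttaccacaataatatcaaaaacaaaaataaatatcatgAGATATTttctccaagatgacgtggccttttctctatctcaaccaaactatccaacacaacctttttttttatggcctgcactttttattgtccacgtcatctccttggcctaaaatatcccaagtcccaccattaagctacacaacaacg
PRR3: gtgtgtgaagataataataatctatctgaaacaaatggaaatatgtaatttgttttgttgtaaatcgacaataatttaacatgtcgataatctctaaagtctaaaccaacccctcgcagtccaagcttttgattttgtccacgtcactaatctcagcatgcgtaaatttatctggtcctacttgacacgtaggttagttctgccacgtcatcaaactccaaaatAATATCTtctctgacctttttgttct
FKF1: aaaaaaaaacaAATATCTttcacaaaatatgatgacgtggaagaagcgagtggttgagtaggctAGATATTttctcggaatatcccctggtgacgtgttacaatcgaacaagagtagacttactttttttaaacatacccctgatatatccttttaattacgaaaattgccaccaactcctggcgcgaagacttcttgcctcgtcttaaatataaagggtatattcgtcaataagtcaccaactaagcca
FKF1 has 2 cores, one on each strand, and TOC1 and PRR3 have 1 each. A match is a description of the letters and not evidence of binding.

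Rapid stress regulators formed the group with the most members in 1 direction. The list holds transcription factors and other proteins whose transcripts rise within minutes of touch, wounding or elicitors. It too was chosen with earlier results of these data known, so its counts are a description. Of its 34 members, 26 had a mean of 5 CPM or more, of which 21 were higher in Ti-treated shoots and 0 lower, against 8.34% and 5.18% of all genes. The median over the 26 was 0.36, against 0.01 over all genes, and 10 of them were beyond 0.5.

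WRKY18, a regulator of defence, had 9.41 CPM in Ti-treated and 5.32 CPM in Ctrl shoots (0.82), and WRKY33, which acts in resistance to necrotrophic fungi, had 47.3 CPM in Ti-treated and 29.1 CPM in Ctrl shoots (0.70). Among the ethylene response factors, ERF6 had 29.0 CPM with Ti and 16.9 CPM in Ctrl (0.78), and ERF104 had 49.2 CPM with Ti and 30.4 CPM in Ctrl (0.69). Both families were thus represented near the top. The zinc finger repressor ZAT10 had 33.0 CPM with Ti and 20.3 CPM in Ctrl (0.70), and ZAT12, known from the response to reactive oxygen, had 7.41 CPM with Ti and 4.75 CPM in Ctrl (0.64). SZF1, a tandem zinc finger protein of salt stress, had 98.9 CPM with Ti and 63.1 CPM in Ctrl (0.65), and its relative SZF2 had 40.3 CPM with Ti and 27.1 CPM in Ctrl (0.57). CAF1A, a deadenylase that shortens mRNA tails, had 39.4 CPM with Ti and 26.0 CPM in Ctrl (0.60). TCH4, a touch-induced cell wall enzyme, had 141 CPM with Ti and 93.1 CPM in Ctrl (0.60), and the calmodulin-like TCH2 had 42.7 CPM with Ti and 31.5 CPM in Ctrl (0.44).

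The 5 members within 0.2 were ERF2 (0.14), WRKY6 (0.07), ERF4 (0.04), DREB2A (0.03) and ATAF1 (0.00). Of the 8 members below 5 CPM, 5 were above 0.2 and 0 below -0.2, but their counting intervals are wide. ERF105 among them had 5.71 CPM with Ti and 1.89 CPM in Ctrl (1.60), and its exons overlap those of AT5G51180 on the other strand. Summed with that gene, the levels were 33.8 CPM with Ti and 29.4 CPM in Ctrl (0.20).

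**Figure D2:**
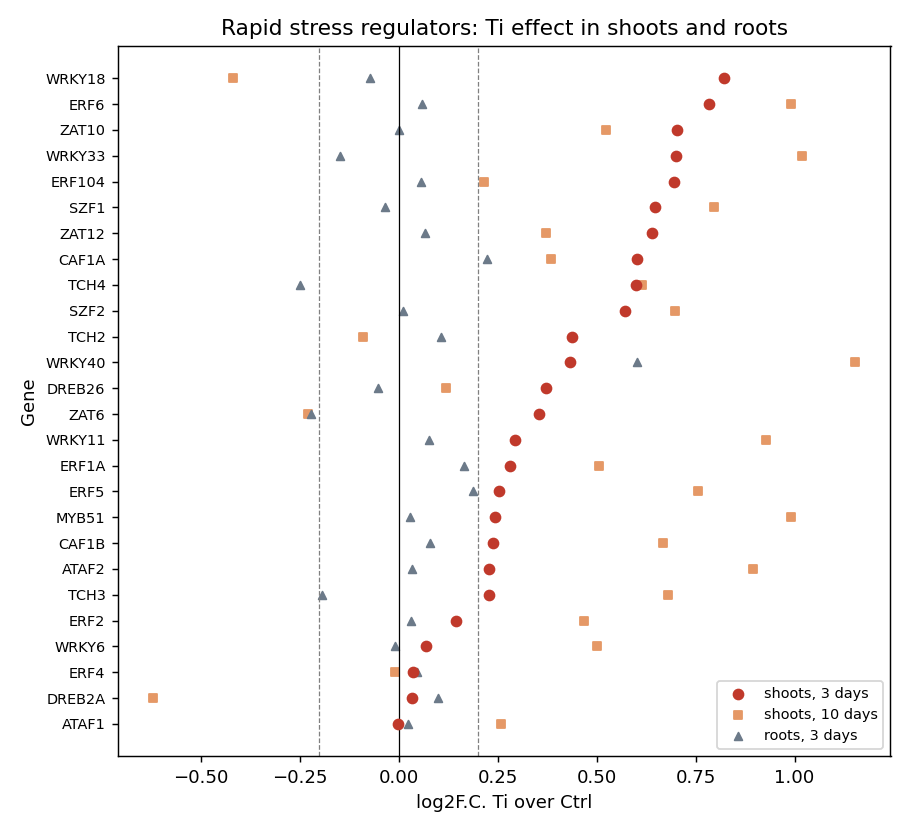
Log2F.C. of Ti over Ctrl (x axis) of the 26 rapid stress regulators with a mean of 5 CPM or more in shoots at 3 days, with circles for shoots at 3 days, squares for shoots at 10 days and triangles for roots at 3 days; dashed lines mark -0.2 and 0.2. No circle lies left of -0.2, and 21 lie right of 0.2.

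In shoots at 10 days, whose libraries are separate, 25 of the 32 members with 5 CPM or more were higher with Ti and 3 lower, with a median of 0.57, where 20.7% of all genes were higher and 17.61% lower. WRKY33 had 1.02 there, ERF6 0.99, SZF1 0.80 and WRKY18 -0.42. In roots at 3 days none of 18 was higher and 1 was lower, against 3.4% and 3.27% of all genes. WRKY40 had a log2F.C. of 0.60 in roots, but a mean below 5 CPM. In roots at 10 days 24 of 33 were higher, against 19.7% of all genes. Other genes near the top are of unknown or little-known function. AT1G07135, a glycine-rich protein, had 37.6 CPM in Ti-treated and 17.1 CPM in Ctrl shoots (1.14), and 1.22 in shoots at 10 days. AT4G29780, annotated as a nuclease, had 20.2 CPM in Ti-treated and 9.38 CPM in Ctrl shoots (1.11), and 0.78 in shoots at 10 days. The mitochondrial dicarboxylate carrier DIC2 had 30.7 CPM with Ti and 17.1 CPM in Ctrl (0.84), and 0.34 in shoots at 10 days.

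The W-box core TTGAC, which WRKY factors bind, was present in the 250 bases before 13 of the 21 higher members (61.9%) and 4 of the 5 others (80%), against 44% of all tested genes. The GCC-box GCCGCC, the site of ethylene response factors, was present in 3 of the 21 (14.3%) and 0 of the 5, against 1.9% of all tested genes. The stretches before SZF1 (plus strand, chr3:20776150-20776209) and SZF2 (plus strand, chr2:16771927-16771986) are shown because these relatives share a pair of W-box cores at a small distance from the start. Bases -70 to -11 are printed, with each core on either strand in capitals (GTCAA is its reverse complement).
SZF1: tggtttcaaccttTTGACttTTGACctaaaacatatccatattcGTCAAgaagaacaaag
SZF2: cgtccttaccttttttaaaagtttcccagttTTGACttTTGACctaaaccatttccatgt
The longest run common to the 250 bases of both is ttTTGACttTTGACctaaa, of 19 bases, which holds 2 cores and begins at base -59 in SZF1 and at base -41 in SZF2.

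Genes abundant in roots made up much of the other end. The level in Ctrl roots at 3 days was set against the mean of the Ti and Ctrl shoots, although roots and shoots were normalized separately, so that the ratio is approximate. Of the 58 genes lower beyond 0.5, 35 had a root level over 2 times the shoot level (60.3%), 22 over 8 times (37.9%) and 14 over 32 times (24.1%). Of all 14215 genes these shares were 25.9%, 1.42% and 0.134%. Of the 83 genes higher beyond 0.5, 13 were over 2 times (15.7%) and 0 over 8 times.

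Across bins of this ratio on the log2 scale the median log2F.C. was 0.01 under -3 (891 genes), 0.03 from -3 to -1 (1531), 0.02 from -1 to 1 (7823), -0.03 from 1 to 3 (3475), -0.12 from 3 to 5 (183) and -0.86 over 5 (19). In the bin from 3 to 5, 65 genes were lower and 11 higher, and in that over 5, 18 were lower and 0 higher. Of all 14215 genes, 5.18% were lower and 8.34% higher. The median of the uppermost bin depends on the shoot level used for the ratio. With Ctrl shoots at 10 days, which share no sample with the difference, that bin held 39 genes with a median of -0.075, 19 lower and 8 higher. The 19 genes of the bin had a median log2F.C. of -0.09 in shoots at 10 days, where 8 were lower and 0 higher, against 17.61% and 20.7% of all genes.

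**Figure D3:**
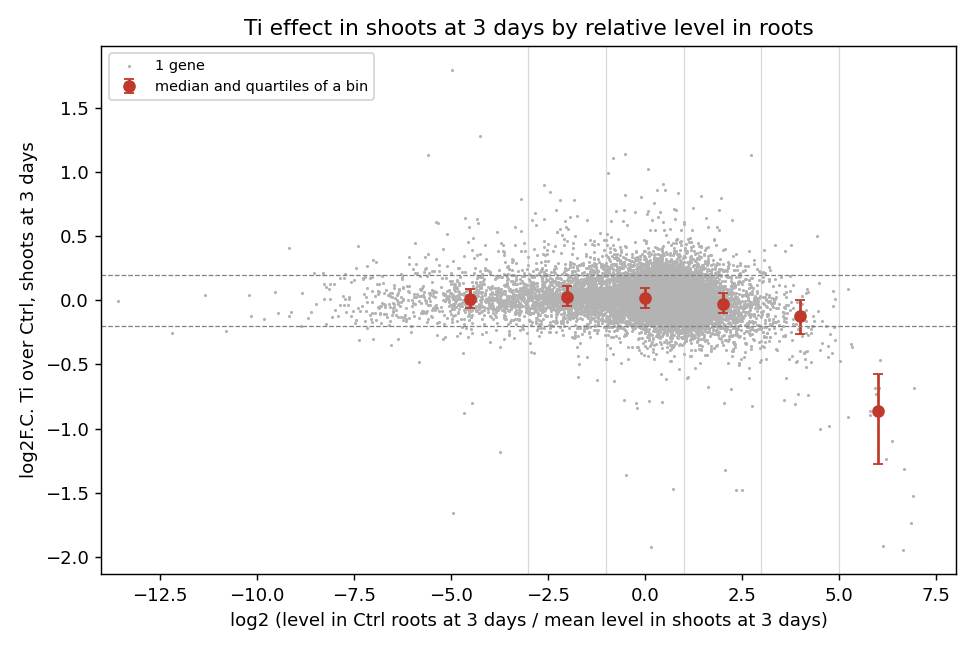
Each grey point is a gene with a mean of 5 CPM or more that also has a value in roots, by the log2 ratio of its level in Ctrl roots to its mean level in shoots (x axis) and its log2F.C. in shoots at 3 days (y axis); red points with bars are medians and quartiles of the 6 bins marked by vertical lines, and dashed lines mark -0.2 and 0.2. The median is near 0 up to a ratio of 3 and is -0.86 in the bin over 5.

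Among these 19 genes are several known from roots. MLP34, a major latex protein homologue, had 9.72 CPM in Ti-treated and 37.5 CPM in Ctrl shoots (-1.95), and 2384 CPM in Ctrl roots. DOX1, a fatty acid dioxygenase, had 4.64 CPM in Ti-treated and 17.5 CPM in Ctrl shoots (-1.92). GRP9, a glycine-rich protein, had 11.8 CPM in Ti-treated and 39.3 CPM in Ctrl shoots (-1.73). These were 3 of the 4 largest falls. CYP81F4, an enzyme of indole glucosinolate modification, had 8.91 CPM with Ti and 25.7 CPM in Ctrl (-1.53). PHT1;1, a phosphate transporter of the root surface, had 3.23 CPM with Ti and 8.07 CPM in Ctrl (-1.32). The peroxidases AT2G38380 (3.40 CPM with Ti, 8.00 CPM in Ctrl, -1.23) and AT3G32980 (15.6 CPM with Ti, 29.1 CPM in Ctrl, -0.89) and the papain-type protease AT4G11320 (19.9 CPM with Ti, 42.5 CPM in Ctrl, -1.10) lay in the same range. EXT3, an extensin of the cell wall, had 29.6 CPM with Ti and 47.5 CPM in Ctrl (-0.68). NRT1.5, which loads nitrate into the xylem, had 11.6 CPM with Ti and 16.0 CPM in Ctrl (-0.47). ABCB4, an auxin transporter, was the only member within 0.2, with 8.38 CPM with Ti and 7.89 CPM in Ctrl (0.09). In roots at 3 days the 19 genes had a median log2F.C. of 0.05.

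Relative to their own level in Ctrl roots, the 19 genes lay between 0.40% and 2.74% in Ti-treated shoots (median 1.2%) and between 1.01% and 3.56% in Ctrl shoots (median 2.00%). These percentages are partly set by the choice of genes, because the ratio over 32 limits the shoot mean. PHT1;1, DOX1, AT2G38380, GSTU8 and AT4G15610 were below 5 CPM in Ti-treated shoots and passed the filter only through the Ctrl group. The difference of Ctrl minus Ti was above 0 in 18 of 19 genes, with a median of 0.839% of the root level, quartiles of 0.665% and 1.06%, and a range from -0.160% (ABCB4) to 1.64% (DOX1). Summed over the 19 genes the levels were 198 CPM in Ti-treated and 391.7 CPM in Ctrl shoots at 3 days, and 490.0 CPM in Ti-treated and 537 CPM in Ctrl shoots at 10 days. All genes with at least 32 CPM in Ctrl roots and a ratio over 32, whatever their level in shoots, were also counted. Of these 293, 249 were lower (85.0%) and 12 higher, against 12% and 13.1% of all 19495 genes with no filter. Their median log2F.C. was -0.86, and -0.23 in shoots at 10 days. The median difference was 0.620% of the root level. This wider set was chosen after the values had been seen. It may hold genes that passed the filter of the study only through groups where they are higher, such as Ctrl.

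**Figure D4:**
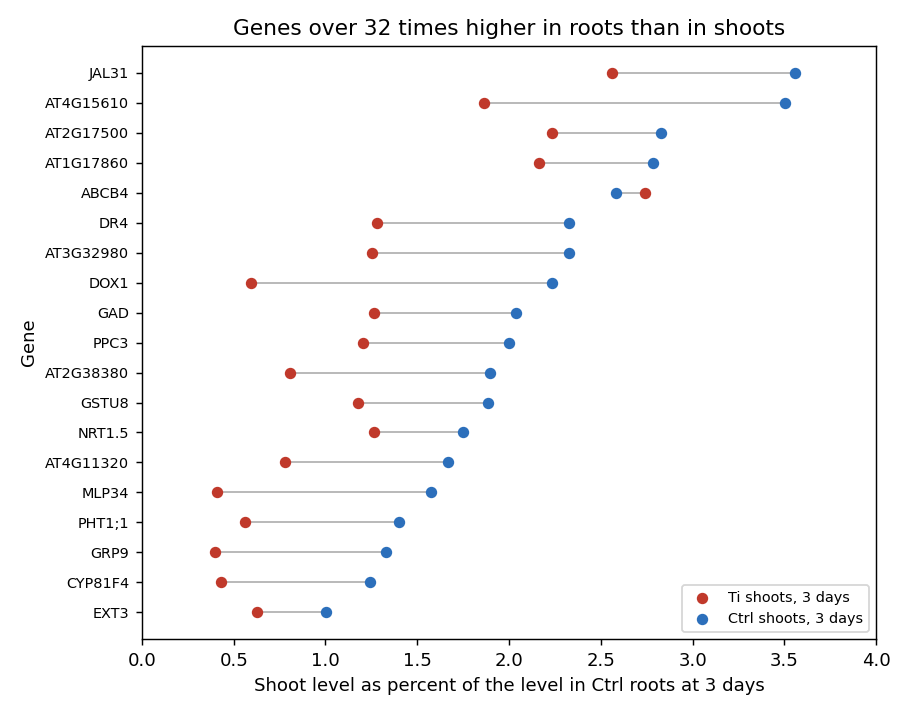
Level in Ti-treated (red) and Ctrl (blue) shoots at 3 days as a percentage of the level in Ctrl roots at 3 days (x axis) for the 19 genes with a root level over 32 times the shoot level. The red point lies left of the blue point in every gene but ABCB4, and the medians are 1.2% with Ti and 2.00% in Ctrl.

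Markers of root cell types were looked at on their own. Of 27 root markers, 16 had a value in shoots. The study had filtered out genes of low level, so some of the 16 may have been kept only through groups where they are higher, such as Ctrl. With no further filter, 15 of the 16 were lower in Ti-treated shoots and 0 higher, against 12% and 13.1% of all 19495 genes in the file. Of all these genes, 72.9% had a mean of 5 CPM or more. The levels of the 16 markers were low, with only PYK10 and SULTR1;2 above 5 CPM in the mean of the groups. PYK10, an abundant glucosidase of roots, had 633 CPM with Ti and 728 CPM in Ctrl (-0.20), and the sulfate transporter SULTR1;2 had 13.2 CPM with Ti and 17.9 CPM in Ctrl (-0.44). All 16 markers summed to 659 CPM in Ti-treated and 778 CPM in Ctrl shoots, 3.92% and 4.63% of their sum in Ctrl roots. At 10 days they summed to 456 CPM in Ti-treated and 467 CPM in Ctrl shoots. PYK10 made up most of these sums. Without it the markers summed to 26.3 CPM in Ti-treated and 50.04 CPM in Ctrl shoots, 0.861% and 1.64% of their sum in Ctrl roots. At 10 days the sums without PYK10 were 29.9 CPM in Ti-treated and 44.4 CPM in Ctrl shoots. Monoterpene synthase AT3G25820 had 1.24 CPM with Ti and 8.16 CPM in Ctrl (-2.72), and its near copy AT3G25830 had 1.76 CPM with Ti and 6.07 CPM in Ctrl (-1.79). IRT1, the iron transporter of the root epidermis, was under 3 reads in the Ti group and at 2.35 CPM in Ctrl, at least 53.2-fold lower when 3 reads over the group are taken as the floor. SULTR1;1 and PRP3 were also under 3 reads in the Ti group. Among the endodermal markers, MYB36 was at -0.83 (±0.60), CASP2 at -0.40 (±0.51), CASP1 at -0.27 (±0.54) and ESB1 at 0.02. CASP2 and CASP1 were the 2 of the 15 lower markers within their counting interval. The part that root tissue in the samples had in these falls was not tested.

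Markers of cell types found in shoots were near even. The 23 shoot cell markers with a value summed to 936 CPM in Ti-treated and 904 CPM in Ctrl shoots. Of the 19 with 5 CPM or more, 3 were higher and 1 lower, against 8.34% and 5.18% of all genes, with a median of 0.05. These markers are not all specific to shoots. Of the 15 that also had a root value, 5 were over 2 times higher in roots, namely XCP1, XCP2, CESA4, CESA7 and CESA8.

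Some of the largest falls were of genes not enriched in roots. Of the 58 genes lower beyond 0.5, 23 had a root level of at most 2 times the shoot level or no root value. FSD1, the iron superoxide dismutase of chloroplasts, had 57.0 CPM in Ti-treated and 147 CPM in Ctrl shoots (-1.36, ±0.05), and -0.48 in roots at 3 days. At 10 days it had 0.55 in shoots. The other superoxide dismutases looked up, chosen after FSD1 had been seen, stayed within 0.2. CSD1 had 249.7 CPM with Ti and 245 CPM in Ctrl (0.03), CSD2 had 689 CPM with Ti and 666 CPM in Ctrl (0.05), and their copper chaperone CCS had 206 CPM with Ti and 185 CPM in Ctrl (0.15). FSD2 (0.11) and FSD3 (0.00), the other iron enzymes, had 29.1 and 39.4 CPM with Ti.

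ASN1, the asparagine synthetase that is expressed when sugar is low, had 110 CPM in Ti-treated and 249 CPM in Ctrl shoots (-1.18, ±0.04), and -1.46 in roots at 3 days. SEN1, a gene of dark and senescence, had 63.4 CPM in Ti-treated and 111 CPM in Ctrl shoots (-0.80), and -0.52 in roots at 3 days, where it was below 5 CPM. Of the 16 sugar starvation genes with 5 CPM or more, however, 4 were lower and 2 higher, with a median of -0.06, against 5.18% and 8.34% of all genes. TPS11 (-0.28) and TPS8 (-0.20), trehalose phosphate synthase homologues, were the other lower members, and DIN10 (0.25) and BZIP53 (0.21) were higher. At 10 days in shoots 8 of 17 were higher and 1 lower, against 20.7% and 17.61% of all genes, and SEN1 had 1.05 there. AT4G36850, a membrane protein that is on none of the lists, had 58.1 CPM with Ti and 107 CPM in Ctrl (-0.88), and -0.77 in roots at 3 days, below 5 CPM.

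Among hormone lists, the jasmonate list had 8 lower and 3 higher of 17 members, with a median of -0.17. The shares of all genes, for this and the following lists, were 5.18% lower and 8.34% higher. VSP2, a storage protein induced by jasmonate, had 13.0 CPM with Ti and 19.6 CPM in Ctrl (-0.59), and CORI3 had 8.14 CPM with Ti and 13.6 CPM in Ctrl (-0.74). The repressor JAZ3 had 9.90 CPM with Ti and 14.4 CPM in Ctrl (-0.54). The biosynthetic enzymes were divided. LOX2 (-0.36), AOS (-0.26) and AOC1 (-0.30) were lower, while LOX4 had 15.5 CPM with Ti and 10.8 CPM in Ctrl (0.52), and LOX3 (0.41) and OPR3 (0.21) were also higher. The auxin and elongation list had 5 lower and 0 higher of 14, with a median of -0.15. ATHB2, a shade-induced homeobox factor, had 9.32 CPM with Ti and 16.0 CPM in Ctrl (-0.78), and SAUR21 (-0.38) and IAA17 (-0.24) followed. The direction was the other at 10 days in shoots, where 15 of 20 were higher and 1 lower, against 20.7% and 17.61% of all genes. The abscisic acid list had 3 higher and 3 lower of 13, with CYP707A3, which breaks down abscisic acid, at 0.81 and RD26, a NAC factor, at -0.62. The salicylic acid list had 4 higher and 1 lower of 10 (median 0.06).

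Among protective proteins, all 5 heat shock genes with 5 CPM or more lay below 0 and 4 were lower, with a median of -0.39. GOLS1, galactinol synthase, had 9.47 CPM with Ti and 16.6 CPM in Ctrl (-0.81), MBF1C, a transcriptional coactivator of heat responses, had 6.65 CPM with Ti and 11.6 CPM in Ctrl (-0.80), and the chaperones HSP90.1 (-0.39) and HSP70-4 (-0.35) were the others. The 9 members below 5 CPM were divided, with 4 above 0.2 and 5 below -0.2. All 5 with 5 CPM or more had a root level between 2.25 and 14.5 times the shoot level, and their part in this was not tested. In roots at 3 days 6 of 8 members were lower, against 3.27% of all genes. The cold regulon had 4 lower and 0 higher of 8, with a median of -0.24. COR15A, a protectant of chloroplast membranes, had 6.05 CPM with Ti and 8.89 CPM in Ctrl (-0.56), and KIN2 (-0.46), COR413IM1 (-0.41) and RD29A (-0.30) were the other 3. The remaining 4, COR15B (0.05), COR413PM1 (-0.03), COR47 (-0.12) and ERD10 (-0.18), were within 0.2, and CBF2, a regulator of this group that was below 5 CPM, had 3.09 CPM with Ti and 1.67 CPM in Ctrl (0.89). Of the 6 cold genes with a root value, 5 were over 2 times higher in roots, and without these the median over the 3 left was -0.41.

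Flavonoid genes were lower in 4 of 11 cases and higher in 0, with a median of -0.10 and with DFR at -0.64, LDOX at -0.47, CHS at -0.39 and TT19 at -0.21. The sulfur list had 5 lower and 1 higher of 18 (median -0.15), with SULTR1;2 the lowest. At 10 days 16 of 18 were lower in shoots, against 17.61% of all genes. APR2, an enzyme of sulfate reduction, had 195 CPM with Ti and 215 CPM in Ctrl at 3 days (-0.14) and a log2F.C. of -2.02 at 10 days. Of the other nutrient lists, iron had 4 higher and 1 lower of 18 (median 0.05), nitrate 4 higher and 2 lower of 21 (0.08) and phosphate starvation 1 higher and 3 lower of 10 (-0.05). The iron regulators BTS (0.24) and IMA3 (0.26) and the reductase FRO3 (0.26) were higher. BHLH38 (-0.31, below 5 CPM) and BHLH100 (-0.09) were not among the higher genes.

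Metabolic lists of leaves moved little. Of 33 nuclear photosynthesis genes 1 was lower and 0 higher, with a median of -0.08. Aliphatic glucosinolate genes had 1 lower and 0 higher of 17 (-0.05), and phenylpropanoid genes 2 lower and 0 higher of 18 (-0.02). Of 64 genes named as cytosolic ribosomal proteins, 3 were lower and 0 higher (-0.05), and of 17 named as extensins 3 were higher and 2 lower (0.07).

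Transcripts of the chloroplast genome and of the rDNA region also stood out. The libraries were made for mRNA, which lacks most of these transcripts. Of 75 chloroplast genes in the file, 18 had 5 CPM or more, of which 10 were higher and 2 lower, with a median of 0.20, against 8.34% and 5.18% of all genes. ATCG00830 and ATCG01310 hold identical values (0.20), and with these counted once 9 of 17 were higher. ATCG00040 had 14.7 CPM in Ti-treated and 4.23 CPM in Ctrl shoots (1.8, ±0.19), and ATCG00170 had 7.76 CPM with Ti and 4.48 CPM in Ctrl (0.79). These genes, ATCG00130 and ATCG00790 were below 5 CPM in Ctrl shoots. All were among the higher genes and passed the filter only through the Ti group, so the count of higher genes is partly set by the filter. Summed over all chloroplast genes the levels were 375 CPM with Ti and 331 CPM in Ctrl. Those with 20 CPM or more had a median of -0.012. All 15 mitochondrial genes in the file were below 5 CPM. AT2G01021, an open reading frame of 102 bases on chromosome 2 (chr2:6571-6672, TAIR10.1), had 362 CPM in Ti-treated and 1376 CPM in Ctrl shoots (-1.93, ±0.02). It lies downstream of the ribosomal RNA genes AT2G01010 and AT2G01020 on the same strand. It had 0.38 in roots at 3 days, -0.52 in shoots at 10 days and -0.71 in roots at 10 days. AT2G07706, an uncharacterized gene that was not placed in either of these groups, had 167 CPM in Ti-treated and 527 CPM in Ctrl shoots (-1.66). Its log2F.C. was 0.47 in roots at 3 days, -0.29 in shoots at 10 days and -1.82 in roots at 10 days.

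The log2F.C. also varied with transcript length, a grouping added after the values had been seen. The median was -0.02 for 1426 genes with up to 1000 bases, 0.02 for 3954 genes with 2001 to 3000 bases, 0.06 for 1260 genes with 3001 to 4000 bases, 0.10 for 578 genes with 4001 to 6000 bases and 0.22 for 131 genes with over 6000 bases. In the last group 72 genes were higher (55.0%) and 0 lower. AT4G17140, with a transcript of 13199 bases, had 116 CPM with Ti and 62.1 CPM in Ctrl (0.91), AT2G25730, with 8174 bases, had 79.7 CPM with Ti and 47.1 CPM in Ctrl (0.76), and AT1G67120, a midasin homologue with 16593 bases, had 47.7 CPM with Ti and 30.7 CPM in Ctrl (0.63). For transcripts over 6000 bases the median was -0.18 in shoots at 10 days, 0.03 in roots at 3 days and 0.24 in roots at 10 days. The rapid stress regulators are short, with a median of 1467.5 bases, and the 9 higher clock genes had a median of 2749 bases, against 1833 for all genes. Genes lower beyond 0.5 had a median of 1542.5 bases and genes higher beyond 0.5 one of 1715. The part of RNA quality in this trend was not tested.

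**Figure D5:**
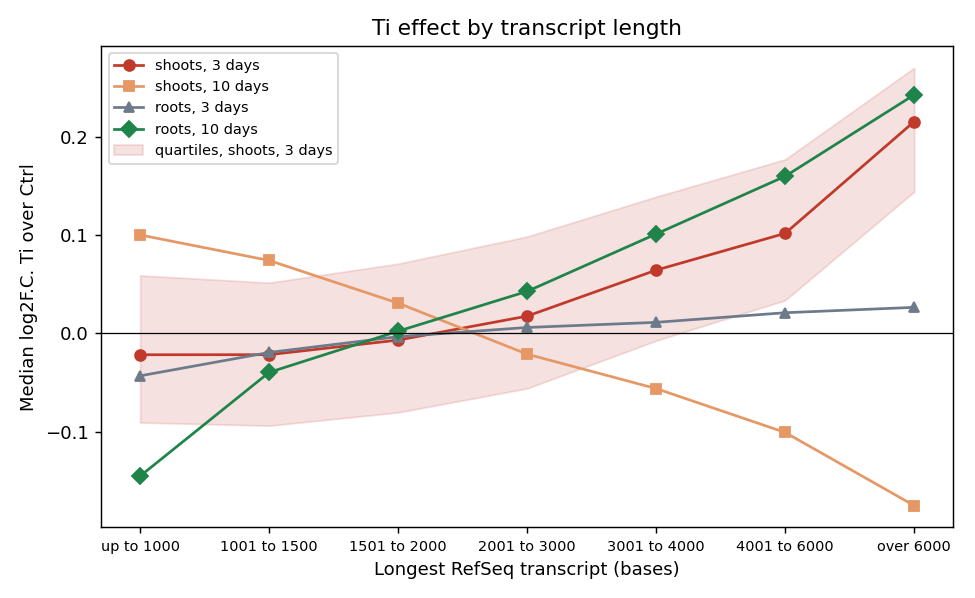
Median log2F.C. of Ti over Ctrl (y axis) of genes with a mean of 5 CPM or more, by the length of the longest RefSeq transcript (x axis), for shoots and roots at 3 and 10 days; the shaded band gives the quartiles in shoots at 3 days. For shoots at 3 days the line runs from -0.02 at up to 1000 bases to 0.22 over 6000 bases, and for shoots at 10 days it runs downwards to -0.18.

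For some named genes the reads of another gene could be involved. The largest rise, of AT3G22125 (10.9 CPM with Ti and 1.32 CPM in Ctrl, 3.05), overlaps on the opposite strand with AT3G22142, a lipid transfer family gene at 111 CPM with Ti and 45.8 CPM in Ctrl (1.28). Whether the counting used strand is not given in the sources used here, and the sum of the pair was 122 CPM with Ti and 47.1 CPM in Ctrl (1.37). AT1G07730, a dirigent-like gene, had 0.809 CPM in Ti-treated shoots and under 3 reads in Ctrl, at least 18.3-fold higher against a floor of 3 reads over the group. Its exons overlap those of AT1G07740 on the same strand, and the sum of the pair differed by 0.23. AT1G24800, an F-box gene, was under 3 reads with Ti and at 0.443 CPM in Ctrl, at least 10.0-fold lower, and the sum with its near copy AT1G25150 differed by -0.12. LCR11, a cysteine-rich peptide gene, had 3.88 CPM in Ti-treated and 10.8 CPM in Ctrl shoots (-1.47, ±0.20), with no such partner found. It had -1.01 in roots at 3 days, 0.75 in shoots at 10 days and 1.36 in roots at 10 days.

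The genes that differed most at 3 days in shoots were finally followed into the libraries that share no sample with them. Among these, the root libraries at 3 days may come from the same seedlings. Of the 83 higher beyond 0.5, 58 had 5 CPM or more in shoots at 10 days, and 40 of these were higher there (69%) and 4 lower (6.9%), against 20.7% and 17.61% of all genes. In roots at 3 days 12 of 54 were higher (22.2%) and 7 lower, against 3.4% and 3.27%, and in roots at 10 days 51 of 64 were higher (79.7%) and 1 lower, against 19.7% and 20.1%. AT1G07050, a CCT motif gene with 15.8 CPM with Ti and 8.77 CPM in Ctrl at 3 days (0.85), is not among the 58, having 0.0739 CPM with Ti and 0.215 CPM in Ctrl at 10 days. Of the 58 lower beyond 0.5, 22 of 52 were lower (42.3%) and 13 higher (25%) in shoots at 10 days. In roots at 3 days 13 of 50 were lower (26%) and 4 higher (8%), against 3.27% and 3.4% of all genes, and in roots at 10 days 18 of 53 were lower (34%) and 17 higher (32.1%), against 20.1% and 19.7%.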

How the data were processed

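RNA of whole shoots and roots was sequenced in 24 libraries (8 groups of 3), and the 2 shoot groups at 3 days are the subject here. The authors checked reads with FastQC (0.11.9), trimmed them with Trim Galore (0.6.6), assigned them to Araport11 transcripts with kallisto (0.44.0), and used edgeR to fit roots and shoots apart. The deposited unit is log2 CPM, taken from that fit. The 3 columns of a group were identical in all rows of both files (0 rows differed), so limma, planned for columns that differ, could not be run, and no p-value is given. Sums of CPM were not used as depth.

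For each gene, log2F.C. is Ti minus Ctrl, with a minimum mean of 5 CPM and no pseudocount. Members and lists (19 lists, 452 loci) were chosen with earlier results of these data known. Named are the 15 largest rises and falls with 5 CPM or more, AT1G07730, AT1G24800 and AT4G11485, list members beyond 0.5, members that describe a list, and genes said to be chosen after their values were seen. A group under 3 reads (0.0442 CPM) was given no log2F.C. as a result. Names, transcripts and promoters came from RefSeq (TAIR10.1), matched by locus for 19405 of 19495 genes. This is not the annotation used by the authors. The promoter sequence of 1 clock gene is not reported here. Motifs were G-box CACGTG, ABRE core ACGTG (contained in the G-box), CRT/DRE core CCGAC, GCC-box GCCGCC, W-box core TTGAC, evening element core AATATCT, SURE core GAGAC and P1BS, on both strands. Partners of 60 named genes (59 with a transcript) were sought with blastn 2.17.0+ (95% identity over 80% of the transcript) and as exon overlap of 20% or more, and 7 had one. Scripts were tested on simulated data. Alternatives were a pseudocount of 1 CPM, median, sum and quantile scaling, other filters, limits and root references, and 2 subsets of genes added after seeing the data. Python 3.11.15, numpy 2.4.6, pandas 2.3.3, biopython 1.88 and matplotlib 3.10.9 were used.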

Additional observations from a re-analysis of the deposited data

How the results depend on the processing

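The counts depended mostly on the filter and the limit. Higher and lower genes numbered 1982 and 1565 at a mean of 1 CPM or more, 526 and 224 at 20 CPM or more, 2563 and 2333 with no filter, and 83 and 58 at a limit of 0.5. The lower genes numbered 381 without genes over 2 times the shoot level in roots. Scaling moved the median of all genes by at most 0.0146 and left both counts within 1.5 times, and higher genes were 56.5% of the calls with quantile normalization, 69.3% with scaling to the same sum and 61.7% as deposited. Of the 26 rapid stress regulators, 13 were higher at 20 CPM or more (median 0.51) and 10 at a limit of 0.5. The 9 higher clock genes moved by no more than 1.5 times under any alternative run. The median of the chloroplast genes, 0.20, was -0.012 at 20 CPM or more. For genes over 32 times higher in roots, the median of -0.86 was -0.075 with Ctrl shoots at 10 days as the shoot level and -0.73 at a mean of 1 CPM or more, and the causes were not tested. The difference as a share of the root level stayed within its quartile range under its 2 alternatives. Of the 30 largest rises and falls, 5 moved by more than their counting interval with a pseudocount of 1 CPM and 1 with quantile normalization, and none changed direction.

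No paired analysis was possible because the columns of a group do not differ. For the same reason, leaving out a replicate was not run. Genes near 5 CPM have a counting interval as wide as the limit of 0.2. At higher levels the interval is narrower, but it leaves out the variation between replicates at every level.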

Other observations

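The other motifs were counted in the 250 bases before the same genes. Among the 48 promoters of the 50 largest rises, the ABRE core was present in 19 (39.6%), against 10 of the 50 largest falls (20%) and 23.2% of all tested genes. It was also present in 6 of the 9 higher clock genes (66.7%) and in 8 of the 16 other clock genes (50%). Some of the higher clock genes are among the 50 largest rises, so these shares overlap. The G-box was present in 3 promoters of rises and 4 of falls (6.25% and 8%, against 7.53%), the CRT/DRE core in 4 and 7 (8.33% and 14%, against 13.2%), the SURE core in 11 and 15 (22.9% and 30%, against 24.8%) and P1BS in 4 and 3 (8.33% and 6%, against 5.35%). The W-box core was present in 27 promoters of rises (56.2%) and 23 of falls (46%), and the GCC-box in 3 and 1 (6.25% and 2%). These counts are descriptions without a test.

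Among genes below 5 CPM, 29 chloroplast genes were above 0.2 and 15 below -0.2, and of the 15 mitochondrial genes 13 were above and 1 below, with a median of 0.89. AT2G16586, an uncharacterized gene, had 140 CPM in Ti-treated and 63.3 CPM in Ctrl shoots at 3 days (1.14), -0.09 in shoots at 10 days and 1.08 in roots at 10 days. AT1G15125, a methyltransferase homologue, had 20.5 CPM in Ti-treated and 11.0 CPM in Ctrl shoots (0.90), 0.30 in shoots at 10 days and 1.37 in roots at 10 days, where it was below 5 CPM. UMAMIT33, a transporter homologue, had 3.49 CPM in Ti-treated and 9.73 CPM in Ctrl shoots (-1.48), and a level in roots 5.63 times that in shoots. AT1G28135 (-1.48) and AT5G06043 (-1.33), short uncharacterized genes with 3.40 and 4.68 CPM in Ti-treated shoots against 9.48 and 11.7 CPM in Ctrl, were also 5.05 and 4.18 times higher in roots than in shoots.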
